A study of Mus musculus with 9 samples.

Results

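The matrix metalloproteinases described here are Mmp2, Mmp3, Mmp9, Mmp10, Mmp13 and Mmp14, and their inhibitors are Timp1, Timp2, Timp3 and Reck. They were taken as every probe set that the array's annotation ties to 1 of these symbols alone, which gave 22 probe sets for 10 genes, out of 34944 single-gene probe sets for 18193 genes. RNA of the mouse squamous carcinoma line SCCVII, which arose spontaneously in the mouth of mice of a strain the labels give as CH3, was measured on Affymetrix expression arrays. IR stands for lines from tumours that SCCVII cells formed in stroma irradiated before the injection, and NIR for lines from tumours formed in stroma left without irradiation. PA is the parental SCCVII culture kept under standard conditions, from which both were made. Each group had 3 arrays, called independent, and the labels leave unsaid whether tumours, lines or dishes differed among them. The p-values therefore cover the spread between these arrays, which may be technical. The labels call the IR tumours hypoxic, and the IR lines invasive and metastatic even after normoxic culture, whereas the NIR lines are called poorly so.

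Matrix metalloproteinases are zinc enzymes that cut collagens and other proteins around cells, and they are made as inactive precursors. TIMP proteins bind the active enzymes and block them, and Reck, anchored to the cell surface, restrains several of them. In carcinomas these enzymes are known for opening paths through basement membrane and for releasing growth factors held in the matrix. The comparison of IR with NIR addresses what sets cells from irradiated stroma apart, and the comparisons with PA what separates each derived group from its source.

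All values below are log2 RMA expression, from each gene's brightest probe set, by its mean on the 9 arrays, unless another is named. The median of all probe sets, 4.49, serves as a guide to background. IR3 and NIR2 stood apart within their groups. The SD of the log2 differences over all probe sets was 0.137 between IR1 and IR2, but 0.195 and 0.199 between IR3 and these 2 arrays. It was 0.179 between NIR1 and NIR3, but 0.217 and 0.208 between NIR2 and these 2, while IR1 and NIR3, of different groups, differed by 0.174. Of 13 squamous and epithelial markers, 4 lay below 4.49 in every group (Krt14, Cdh1, Trp63 and Dsp), in cells labelled as squamous carcinoma. The rest had group means above it, some of them close, such as Ivl with 4.61 in IR, 4.56 in NIR and 4.69 in PA. Sfn averaged 6.49 in IR, 6.39 in NIR and 6.47 in PA. Krt8 averaged 12.76 in IR, 12.72 in NIR and 12.67 in PA. Of the same 13 markers Krt18 alone was called, as higher in IR than in NIR (1.65% of all genes called) and PA (1.06%). Of 10 endothelial markers 5 were below 4.49 in every group. Precision is limited by the 3 arrays a group.

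Mmp2, gelatinase A, which cuts type IV collagen and denatured collagens, was the member that differed most between groups, and it was highest in NIR. It read 6.77, 6.60 and 7.72 in IR1, IR2 and IR3, 9.29, 8.34 and 7.72 in NIR1, NIR2 and NIR3, and 6.76, 6.85 and 6.91 in PA1, PA2 and PA3. All NIR arrays were above all PA arrays, IR1 and IR2 were at the PA level, and IR3 reached that of NIR3. IR averaged 7.03 ± 0.60, NIR 8.45 ± 0.79 and PA 6.84 ± 0.077 (SD, n = 3 each), so the derived groups spread far more than the parental arrays did.

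Mmp2 rose 3.06-fold in NIR against PA (log2 fold change 1.61, SE 0.35, 95% interval 0.86 to 2.37, limma adjusted p = 0.047). This SE, interval and p-value assume an equal spread in the 3 groups, which the SDs above do not show. Mmp2 was the only one of the 10 genes called in that comparison, where 1.3% of all genes were called and 0.379% were called as higher in NIR. In the F test over the 3 groups Mmp2 was again the only member called (limma adjusted p = 0.0484), against 2.34% of all genes. The second Mmp2 probe set, 1416136_at, read 6.37, 6.31 and 7.36 in IR, 8.92, 8.06 and 7.46 in NIR and 6.45, 6.26 and 6.61 in PA, the same order of arrays within IR and NIR. In a fit of every probe set it was the only one of the 22 called in NIR against PA (1.71, limma adjusted p = 0.0384), against 0.836% of all probe sets, and the brighter 1439364_a_at gave 1.61 with an adjusted p of 0.062.

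The Mmp2 call in NIR against PA lay close to the threshold and turned on single arrays and on the fit. It was lost with trend and robust settings in eBayes (adjusted p = 0.0903) and when only the 2 groups compared were fitted (0.0543). Limma's adjusted p was 0.015 without NIR3 and 0.019 without IR3, and the call was lost without any other array, with values from 0.0573 (without IR2) to 0.175 (without PA1). The log2 fold change itself ran from 1.20 without NIR1 to 1.98 without NIR3.

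**Figure D1:**
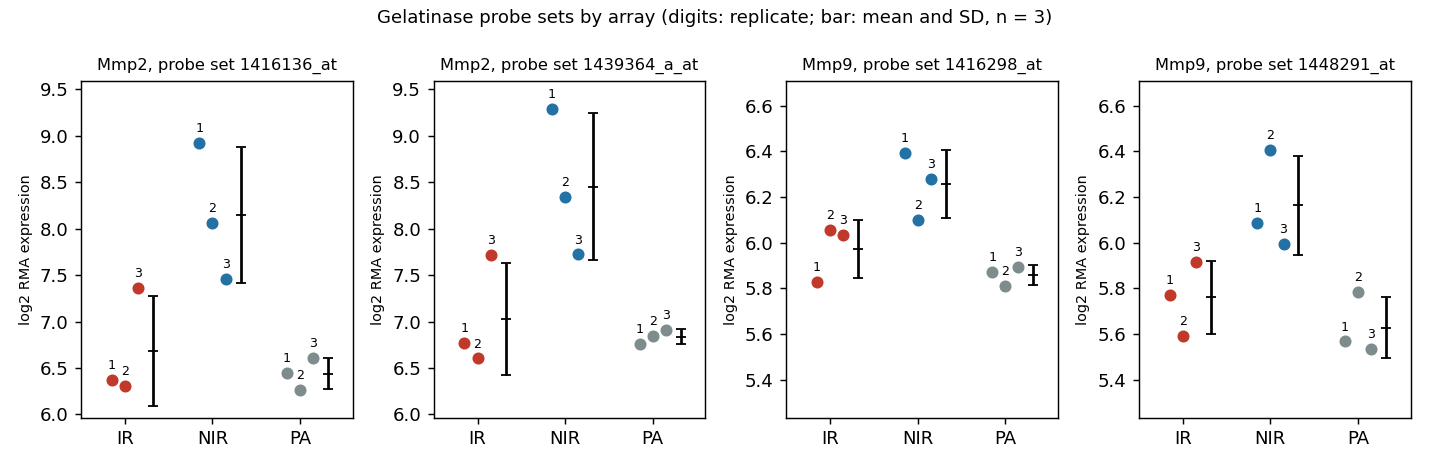
Log2 RMA expression of both probe sets of Mmp2 and both of Mmp9 in the IR, NIR and PA arrays. Each point is 1 array with its replicate number, and bars give the mean and SD (n = 3). All NIR arrays lie above all PA arrays in each panel, and IR3 lies beside NIR3 for Mmp2.

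Against NIR, Mmp2 was lower in IR by a fitted 2.68-fold, but it did not pass (log2 fold change -1.42, SE 0.35, 95% interval -2.18 to -0.67, limma adjusted p = 0.0669). None of the 10 genes was called in IR against NIR, where 1.65% of all genes were, although 2 of the 10 had an unadjusted p below 0.05, against 15.9% of all genes. None of the 22 probe sets was called either, where 0.881% of all probe sets were. The groups did not overlap for Mmp2, by a margin of 7.719 in IR3 against 7.722 in NIR3. Without IR3 the difference was -1.77 and passed (limma adjusted p = 0.0424), and without NIR3 it was -1.79 and passed (0.031). Without any other array it did not pass. Against PA, Mmp2 in IR differed by 0.19 (95% interval -0.56 to 0.95, limma adjusted p = 0.937). Without IR3 that difference was -0.15.

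Mmp2 is also a product of fibroblasts, and cultures from tumours can carry host cells. In such bulk RNA, fewer cells of a type and less RNA per cell cannot be told apart. The 12 fibroblast markers had a mean of 6.82, 6.71 and 6.94 in IR1, IR2 and IR3, 6.99, 6.99 and 6.66 in NIR, and 6.46, 6.38 and 6.55 in PA, so both derived groups lay above PA. The list holds collagen genes that PA itself reads brightly, and 4 of the 12 markers (Thy1, Postn, Fap and Tcf21) were below 4.49 in every group. Other markers that are not collagens were above it, such as Pdgfra, with means of 9.17 in IR, 9.32 in NIR and 9.15 in PA. Pdgfrb averaged 5.67 in IR, 5.67 in NIR and 5.82 in PA. In NIR against PA, 2 of the 12 markers rose, 0 fell and 10 did not pass. Of all genes 1.3% were called and 0.379% were called as higher in NIR. The median log2 fold change of the list was 0.13 against 0.0046 over all genes.

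The markers that rose in NIR were the small leucine-rich proteoglycans lumican and decorin. Lum read 5.95, 5.62 and 6.49 in IR, 6.97, 6.89 and 6.02 in NIR and 5.33, 5.27 and 5.40 in PA (NIR minus PA 1.29, limma adjusted p = 0.0241). Dcn read 8.90, 8.88 and 9.38 in IR, 8.93, 8.61 and 8.33 in NIR and 7.78, 7.66 and 8.01 in PA (NIR minus PA 0.81, limma adjusted p = 0.0391). Dpt, the dermal matrix protein dermatopontin, read 5.53, 5.31 and 7.30 in IR, 7.62, 6.60 and 6.22 in NIR and 5.00, 4.80 and 5.36 in PA. Lum, Dcn and Dpt thus each had the same order of arrays as Mmp2 within IR and within NIR. The rest of the fibroblast list did not, with Col1a1, Col1a2 and Col3a1 highest in NIR2 and Pdgfra in NIR3. Dpt did not pass in NIR against PA (1.76, limma adjusted p = 0.106) and is singled out after its values were seen. Of 10 endothelial markers 0 were called in IR against NIR, IR against PA or NIR against PA. The shares of all genes called were 1.65%, 1.06% and 1.3%. Cdh5, the endothelial cadherin, likewise singled out, read 5.77, 5.74 and 6.32 in IR, 6.65, 6.67 and 6.31 in NIR and 5.96, 5.81 and 5.95 in PA. Its NIR arrays were above all PA arrays and IR3 was level with NIR3 (NIR minus PA 0.64, limma adjusted p = 0.0631, and IR minus NIR -0.60, 0.0682). Flt1 of the same list went the other way, with every NIR array below every PA array (NIR minus PA -0.25, limma adjusted p = 0.389, and IR minus NIR 0.30, 0.199). The list median in NIR minus PA was -0.024, against 0.0046 over all genes. The part of host cells in the Mmp2 difference was not tested.

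The macrophage marker list, of 14 genes, had its highest mean in IR3. It averaged 4.77, 4.81 and 5.20 in IR1, IR2 and IR3, 4.85, 4.83 and 4.74 in NIR and 4.55, 4.55 and 4.68 in PA. Of the 14 markers 6 were highest in IR3 and 8 on another array. Lyz2, the lysozyme gene, read 5.71, 5.78 and 8.25 in IR, 5.60, 6.32 and 5.499 in NIR and 4.63, 4.95 and 5.02 in PA, and without it the list averaged 4.70, 4.74 and 4.96 in IR. PA was below both derived groups, and 5 of the 14 markers, Adgre1 and Itgam among them, were below 4.49 in every group. In NIR against PA, 1 of the 14 rose, the mannose receptor gene Mrc1 (0.75, limma adjusted p = 0.0156), where 0.379% of all genes were called as higher.

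**Figure D2:**
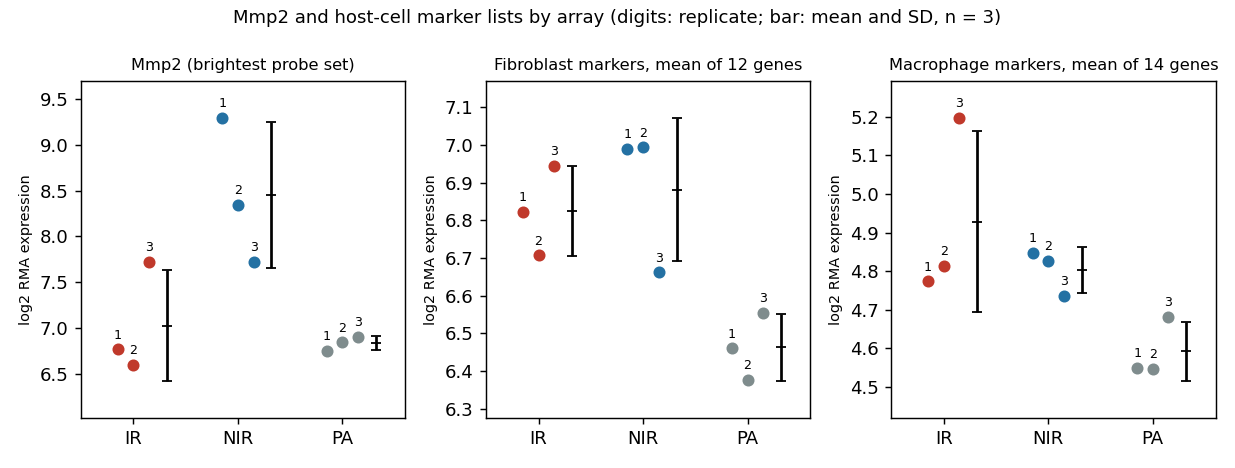
Log2 RMA expression of Mmp2 (left), the mean of 12 fibroblast markers (middle) and the mean of 14 macrophage markers (right) in the IR, NIR and PA arrays. Points are arrays with their replicate number, bars the mean and SD (n = 3). IR3 is the highest IR array in all panels, and PA is lowest for both marker lists.

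Mmp9, gelatinase B, the relative of Mmp2 that also degrades type IV collagen, showed a smaller difference in the same direction. It read 5.83, 6.06 and 6.03 in IR, 6.39, 6.10 and 6.28 in NIR and 5.87, 5.81 and 5.89 in PA. NIR lay above both other groups without overlap, by 0.40 over PA (SE 0.091, 95% interval 0.20 to 0.60, limma adjusted p = 0.061), while IR minus NIR was -0.29 (95% interval -0.48 to -0.087, limma adjusted p = 0.14). Neither passed. Its second probe set, 1448291_at, read 5.77, 5.59 and 5.91 in IR, 6.09, 6.41 and 5.996 in NIR and 5.57, 5.78 and 5.53 in PA, again with NIR above the others (NIR minus PA 0.53, limma adjusted p = 0.0749).

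When the probe sets of each gene were averaged instead, Mmp9 passed in NIR against PA (0.47, limma adjusted p = 0.00396) and in IR against NIR (-0.34, limma adjusted p = 0.0361). Its probe sets did not rank the NIR arrays alike, with NIR2 lowest on the brightest and highest on 1448291_at (Pearson r = 0.59 over the 9 arrays). Averaging levels such opposite deviations and so narrows the spread within NIR. With the brightest probe set Mmp9 also passed in NIR against PA once NIR2 was left out (0.48, limma adjusted p = 0.0299). Neutrophils store Mmp9, and of 9 neutrophil markers 6 were below 4.49 in every group, S100a8 and S100a9 among them. The list averaged 4.32 to 4.38 on the IR arrays, 4.33 to 4.38 on the NIR arrays and 4.28 to 4.39 on the PA arrays, so the groups overlapped. In IR against NIR, IR against PA and NIR against PA 0 of the 9 were called, where 1.65%, 1.06% and 1.3% of all genes were.

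Mmp14, the membrane-bound enzyme that activates the Mmp2 precursor at the cell surface, was well above background in every array. It read 8.53, 8.42 and 8.92 in IR, 8.72, 8.96 and 8.71 in NIR and 8.72, 8.60 and 8.71 in PA, and the groups overlapped. The 95% intervals ran from -0.44 to 0.085 for IR minus NIR, -0.32 to 0.20 for IR minus PA and -0.14 to 0.38 for NIR minus PA, with limma adjusted p from 0.529 to 0.949. Its other probe sets gave -0.16 and -0.12 for IR minus NIR, and none of the 3 was called in any comparison. IR3 was the highest IR array for 2 of the 3, with 8.30 on 1416572_at against 7.73 in IR1 and 7.69 in IR2.

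Timp2, the inhibitor that also holds the Mmp2 precursor to Mmp14, had 6 probe sets. The brightest, 1460287_at, read 11.88, 11.85 and 11.96 in IR, 12.08, 11.90 and 11.65 in NIR and 12.12, 12.17 and 12.25 in PA. Every IR and NIR array was below every PA array, by -0.28 for IR minus PA (95% interval -0.50 to -0.064, limma adjusted p = 0.374) and -0.30 for NIR minus PA (-0.51 to -0.083, limma adjusted p = 0.228), and neither passed. Of the other probe sets, 1420924_at had the same order of groups without overlap, at -0.19 and -0.28 against PA. Of the remaining 4, 1437081_at averaged 3.96, below 4.49, and gave 0.059 for IR minus PA and -0.11 for NIR minus PA. The others gave -0.090, -0.077 and -0.016 for IR minus PA and -0.065, -0.070 and -0.032 for NIR minus PA. All 4 had overlapping groups. The probe sets of Timp2 above background thus agreed in sign against PA, but not on the size of the difference. IR minus NIR was 0.019 (95% interval -0.20 to 0.24).

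Mmp3 and Mmp10, the stromelysins, and Mmp13, a collagenase that acts on type II and other fibrillar collagens, were near or below 4.49 in every group. Mmp3 read 4.02, 4.10 and 4.02 in IR, 3.81, 4.05 and 3.91 in NIR and 4.22, 4.05 and 4.07 in PA. Mmp10 read 4.26, 4.54 and 4.46 in IR, 4.71, 4.46 and 4.31 in NIR and 4.60, 4.28 and 4.51 in PA. Mmp13 read 3.05, 2.82 and 2.77 in IR, 2.80, 2.75 and 2.85 in NIR and 2.85, 2.91 and 3.03 in PA. The groups overlapped for all 3 genes in every comparison, and limma's adjusted p ran from 0.357 to 0.964. At such signals a difference between groups may not be detectable.

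These 3 genes lie on chromosome 9 in an unbroken run of 10 protein-coding Mmp genes in the RefSeq gene order, of which 9 were measured. Group means over the run went from 2.80 to 5.10, and 7 of the 9 genes were below 4.49 in every group, Mmp10 and Mmp7 being the others. None was called in any comparison (limma, lowest adjusted p = 0.35, for Mmp12 in IR against PA).

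The sequences before the annotated starts of these 3 genes are shown because they share letters that set them apart from the other members with an entry. RefSeq promoters of build GRCm38.p6 matched 8 of the 10 members; Mmp2 and Mmp9 were not among them. In the 250 bases before the start, Mmp3, Mmp10 and Mmp13 each hold TGANTCA, the site of AP-1 factors, followed by TATAAA, the letters of a TATA box. These occur in 6.75% and 12.4% of all 32851 promoter windows of that length, on either strand. None of the other 5 members holds either motif in this window, and all 5 hold GGGCGG, the GC box bound by SP1, which 32.7% of the windows hold. Mmp14 also holds GCGNGGGCG, an EGR site overlapping both of its GC boxes, found in 4.7%. Below are the last 120 bases before the start, 5′ to 3′ on the plus strand, with these motifs in capitals, at chr9:7445702-7445821 for Mmp3, chr9:7502222-7502341 for Mmp10, chr9:7272394-7272513 for Mmp13 and chr14:54431478-54431597 for Mmp14.
Mmp3: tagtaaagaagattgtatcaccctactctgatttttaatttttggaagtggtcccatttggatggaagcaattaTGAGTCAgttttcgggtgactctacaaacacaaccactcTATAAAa
Mmp10: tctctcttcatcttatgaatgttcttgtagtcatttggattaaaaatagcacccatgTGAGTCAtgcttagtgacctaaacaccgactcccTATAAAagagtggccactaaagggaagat
Mmp13: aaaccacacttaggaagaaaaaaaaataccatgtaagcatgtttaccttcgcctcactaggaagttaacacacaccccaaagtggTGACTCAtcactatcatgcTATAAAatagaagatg
Mmp14: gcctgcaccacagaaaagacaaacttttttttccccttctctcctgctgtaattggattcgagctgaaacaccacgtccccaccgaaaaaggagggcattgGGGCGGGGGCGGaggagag

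A match is a description of letters and not of binding. The AP-1 letters begin 46 bases before the annotated start in Mmp3, 63 in Mmp10 and 35 in Mmp13, and this motif is its own reverse complement, so it reads on both strands. TATAAA begins 7 bases before the annotated start in Mmp3, 29 in Mmp10 and 16 in Mmp13. All these distances depend on where the start is annotated.

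Among the inhibitors, Timp1, a secreted inhibitor of most of these enzymes, was well above background and overlapped between groups. It read 9.06, 8.98 and 8.92 in IR, 9.23, 9.04 and 8.96 in NIR and 8.98, 8.95 and 8.82 in PA. Its largest difference was 0.16 for NIR minus PA (95% interval -0.024 to 0.35, limma adjusted p = 0.494). Timp3, the inhibitor that binds to the matrix, was below 4.49 on all 9 arrays in each of its 4 probe sets, with values from 3.34 to 3.87. Differences of these probe sets were from -0.066 to 0.15 in the 3 comparisons, and none was called. Reck had 1 probe set, also near background, at 3.69, 3.67 and 3.69 in IR, 3.84, 3.77 and 3.71 in NIR and 3.76, 3.72 and 3.81 in PA. IR was below both other groups without overlap, by -0.092 against NIR (limma adjusted p = 0.564) and -0.082 against PA (limma adjusted p = 0.82), differences that did not pass.

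**Figure D3:**
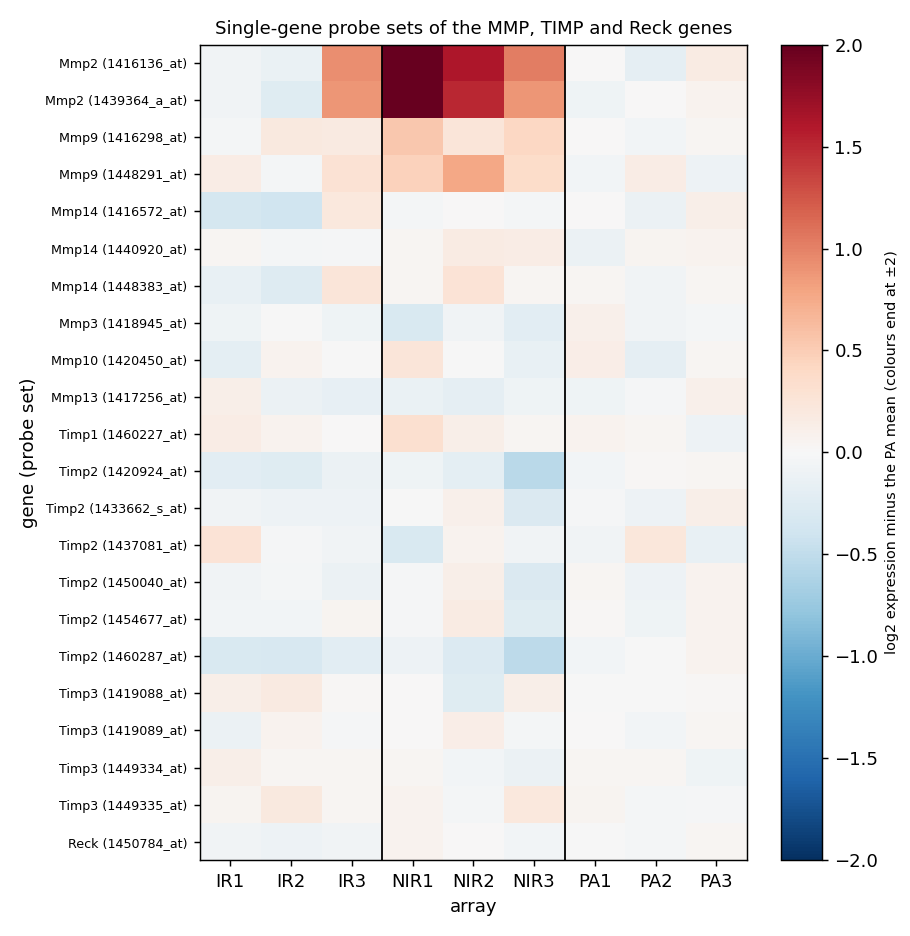
Log2 RMA expression minus the PA mean for the 22 single-gene probe sets (rows) in the 9 arrays (columns, IR, NIR, PA), with colours ending at ±2. Both Mmp2 rows are raised in the NIR arrays and in IR3, and both Mmp9 rows are weakly raised in NIR.

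Over the members as a group the differences were small outside Mmp2. In IR against NIR, 3 of the 10 log2 fold changes were positive and 7 negative, with a median of -0.082 against 0.0014 over all genes. In IR against PA none of the 10 was called, where 1.06% of all genes were, and 1 had an unadjusted p below 0.05, against 8.59% of all genes. Nor was any of the 22 probe sets, against 0.69% of all probe sets. Its median was -0.048 against 0.0043 over all genes. In NIR against PA the median was 0.033 against 0.0046 over all genes, and 4 had an unadjusted p below 0.05, against 12.1% of all genes. Leaving out Mmp2, no 95% interval reached beyond -0.48 or 0.30 in IR against NIR, -0.50 or 0.31 in IR against PA, or -0.51 or 0.60 in NIR against PA.

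Members whose groups did not overlap in IR against NIR were Mmp2, Mmp9 and Reck, all lower in IR, against 9.4% of all genes. Those lower in IR than in PA without overlap were Timp2 and Reck, against 7.43% of all genes. In NIR, Mmp2 and Mmp9 were above PA without overlap, against 7.82% of all genes, and Timp2 was below it, against 7.73%. The comparisons with PA share the PA arrays.

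**Figure D4:**
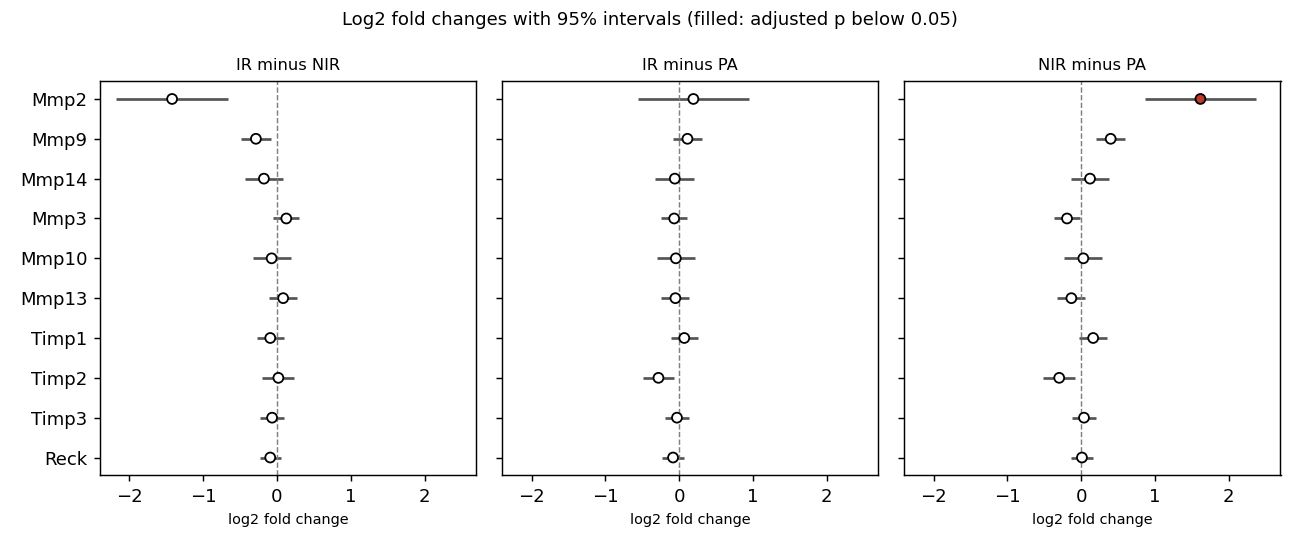
Log2 fold changes of the 10 genes with 95% intervals for IR minus NIR, IR minus PA and NIR minus PA. The filled point, Mmp2 in NIR minus PA at 1.61, is the only one with an adjusted p below 0.05.

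Other metalloproteinase genes showed no called change. Of 18 listed genes, further Mmp genes and Timp4, 13 were measured, 8 of them below 4.49 in every group. In IR against NIR, IR against PA and NIR against PA, 0 were called by limma, where 1.65%, 1.06% and 1.3% of all genes were. An unadjusted p below 0.05 was found for 2, 1 and 0 of the 13, against 15.9%, 8.59% and 12.1% of all genes. The median log2 fold changes were -0.028, -0.024 and 0.0058 in the same order, against 0.0014, 0.0043 and 0.0046 over all genes. The brightest were Mmp24, a membrane-type enzyme (6.09 in IR, 5.91 in NIR, 6.05 in PA), Mmp23 (5.22 in IR, 5.49 in NIR, 5.30 in PA) and Mmp11, stromelysin 3 (5.28 in IR, 5.02 in NIR, 5.02 in PA). Mmp12, the macrophage elastase, is added after its values were seen. It read 4.01, 4.12 and 5.12 in IR, 4.06, 4.06 and 4.26 in NIR and 3.71, 3.66 and 3.91 in PA, so that its highest array was IR3, which also had the highest mean of the macrophage markers.

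Of 29 activators and partners of the enzymes at the cell surface, 28 were measured. In IR against NIR, IR against PA and NIR against PA, 0 were called by limma, where 1.65%, 1.06% and 1.3% of all genes were. An unadjusted p below 0.05 was found for 4, 2 and 5 of the 28, against 15.9%, 8.59% and 12.1% of all genes. The brightest were Ctsl, the lysosomal protease cathepsin L, with IR minus NIR of -0.029, Pcolce, an enhancer of procollagen processing (0.37, limma adjusted p = 0.0957), and Ctsb, cathepsin B (0.027). The median log2 fold changes were -0.025 in IR against NIR, -3.1e-05 in IR against PA and 0.0068 in NIR against PA.

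Of 24 measured regulators of Mmp transcription, out of 27 listed, 2 rose and 1 fell in IR against NIR, 4 rose and 0 fell in IR against PA, and 1 rose and 1 fell in NIR against PA. Over all genes 1.65%, 1.06% and 1.3% were called in these comparisons. Fosl1, an AP-1 subunit, was highest in NIR, as Mmp2 was. It read 9.62, 9.53 and 9.70 in IR, 9.94, 10.36 and 9.996 in NIR and 9.61, 9.62 and 9.55 in PA. It rose in NIR against PA (0.51, limma adjusted p = 0.0365) and fell in IR against NIR (-0.48, limma adjusted p = 0.0428). Fos, another AP-1 subunit, was below 4.49 on every NIR array and close to it in PA, so its differences rest on signals near background. It read 4.95, 4.78 and 4.93 in IR, 3.94, 4.16 and 4.15 in NIR and 4.51, 4.36 and 4.29 in PA. Fos passed as higher in IR, both against NIR (0.80, limma adjusted p = 0.00244) and against PA (0.50, limma adjusted p = 0.0182).

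Egr1, a zinc finger factor induced by growth factors, rose in IR against NIR (3.94) and against PA (1.97) and fell in NIR against PA (-1.97), with limma adjusted p up to 0.000942. Its NIR values of 4.26 to 5.18 were near background. Atf3 and Snai2, a stress-induced factor and a repressor of epithelial genes, rose in IR against PA (0.59 and 0.63, limma adjusted p = 0.0275 and 0.0432). The brightest uncalled regulators were Cebpb, Sp1 and Jund, with IR minus NIR of -0.10, 0.22 and 0.11. Mmp3, Mmp10 and Mmp13, which hold the AP-1 letters shown above, were not called in any comparison, nor was Mmp14 with the EGR letters. The first 3 were near or below background, where a difference may not be detectable. Whether these factors act on these genes was not tested. The list medians were -0.051 in IR against NIR, 0.014 in IR against PA and 0.043 in NIR against PA.

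Of 24 matrix proteins that these enzymes cut, 21 were measured. In IR against NIR 0 rose and 1 fell, in IR against PA 1 rose and 1 fell, and in NIR against PA 1 rose and 0 fell, beside the same shares of all genes. Vcan, the large proteoglycan versican, was also highest in NIR. It read 8.44, 8.50 and 8.40 in IR, 9.31, 9.16 and 9.00 in NIR and 8.81, 8.87 and 8.84 in PA. It fell in IR against NIR (-0.71, limma adjusted p = 0.0039) and against PA (-0.39, limma adjusted p = 0.0486). Unlike Mmp2, it did not pass in NIR against PA (0.32, limma adjusted p = 0.103). Dcn was the gene of this list that rose against PA in both derived groups (IR minus PA 1.24, limma adjusted p = 0.00265). Sparc, Col3a1 and Col1a2, the brightest uncalled genes, had IR minus NIR of 0.079, -0.032 and 0.22. The list medians were -0.032, 0.0057 and 0.031 in IR against NIR, IR against PA and NIR against PA.

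The genes most like Mmp2 over the 9 arrays, by Pearson correlation among the 425 other genes called by the F test, were Pdzrn3 (r = 0.97), Ankrd33b (r = 0.91) and Tspan5 (r = 0.91). The points share the group differences by which these genes were called, so the values describe the pattern and carry no test. Pdzrn3, a ubiquitin ligase with PDZ domains, read 6.06, 5.85 and 6.83 in IR, 7.54, 7.06 and 6.99 in NIR and 6.12, 6.26 and 6.08 in PA, which includes the high IR3. Ankrd33b read 7.21, 7.10 and 7.23 in IR, 8.28, 7.72 and 7.87 in NIR and 6.84, 6.91 and 7.04 in PA, without a raised IR3. Tspan5, a tetraspanin, read 6.54, 6.40 and 6.70 in IR, 7.25, 7.19 and 7.04 in NIR and 6.56, 6.78 and 6.59 in PA.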

How the data were processed

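The authors deposited log2 expression values. RMA is the method named, per the submitters' processing notes; its version and settings are not given in the sources used here. RNA came from a Qiagen RNeasy Mini Kit, per the labels' protocols, and was labelled with biotin by the standard Affymetrix procedure. Values ran from 2.47 to 14.01 with array medians of 4.45 to 4.52, so no further scaling was applied. Genes were named from the platform annotation, updated through Entrez Gene identifiers against RefSeq, which matched 34740 of 34944 single-gene probe sets. The brightest probe set of each gene, by its mean on the 9 arrays, was tested.

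All 9 arrays entered one limma 3.58.1 fit in R 4.3.3 (lmFit, then eBayes; 1 coefficient for each group, no covariates, 2-sided, 6 residual and 5.48 prior degrees of freedom), with Benjamini-Hochberg adjustment over all 18193 genes and a threshold of 0.05. The fit was checked on simulated data with an equal spread in the 3 groups, so that check does not cover the unequal spread of Mmp2. Every single-gene probe set was also fitted. The members and lists were chosen with earlier results of these data known. Named genes were all members, each list's called genes (up to 6 a comparison by size), up to 3 uncalled genes a list by mean level, and the 3 genes most correlated with each called member. The alternatives were a filter on dim genes, averaging the probe sets of each gene, dropping those that can match more than 1 transcript, centring arrays on their medians, repeating quantile normalization, trend and robust settings in eBayes, fitting only the groups compared, a block for the replicate number, and leaving out each array. Figures used matplotlib 3.10.9 in Python 3.11.15.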

Additional observations from a re-analysis of the deposited data

How the results depend on the processing

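Mmp2 in NIR against PA and in the F test over the 3 groups was the only member call, and it was not stable. The count of members called in NIR against PA was 2 when probe sets were averaged by gene, and 0 with trend and robust settings, with only the 2 groups compared and with the replicate block. In the F test the count was 0 with trend and robust settings and with the replicate block, and in IR against NIR it was 1 with averaged probe sets (Mmp9). With averaged probe sets Mmp2 itself did not pass the F test (limma adjusted p = 0.0519). Leaving out 1 array gave 0 to 1 in IR against NIR, 0 to 0 in IR against PA, 0 to 1 in NIR against PA and 0 to 1 in the F test. Without NIR2 the member called in NIR against PA was Mmp9 (limma adjusted p = 0.0299) and not Mmp2 (0.112).

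Same-numbered arrays did not deviate together, with correlations of their deviations from the group means between -0.20 and 0.097 over 9 pairs, so the numbers were not taken to pair the samples, and 1 array of 9 correlated best with its own number. With the replicate block the limma adjusted p of Mmp2 in NIR against PA was 0.0825.

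Of 580 alternative values for single genes, 31 changed sign, and 0 of these were called under either setting; the cause was not tested. With the mean of its probe sets Timp3 was 0.053 in IR minus NIR and 0.061 in IR minus PA. Single probe sets of Timp3 gave 0.15, 0.11 and 0.023 in IR minus NIR, 0.10, 0.066 and 0.10 in IR minus PA, and -0.042 and -0.045 in NIR minus PA. Those of Timp2 gave -0.025 and -0.0073 in IR minus NIR and 0.059 in IR minus PA, the last on 1437081_at, which averaged 3.96, below 4.49. Of Mmp14, 1 gave -0.024 in NIR minus PA. When 1 array was left out, IR minus NIR ran from -0.16 to 0.035 for Mmp10, -0.0019 to 0.14 for Mmp13 and -0.094 to 0.12 for Timp2. IR minus PA ran from -0.14 to 0.034 for Mmp10, -0.076 to 0.017 for Timp3, -0.21 to 0.043 for Mmp14, -0.15 to 0.41 for Mmp2 and -0.14 to 0.0041 for Mmp13. NIR minus PA ran from -0.080 to 0.12 for Mmp10, -0.025 to 0.042 for Reck and -0.012 to 0.075 for Timp3. Signals near background limit what the values of Mmp3, Mmp10, Mmp13, Timp3 and Reck can show.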
